A study of Mus musculus with 6 samples.

Results

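The epidermal growth factor (EGF) family members examined here were 5 ligand genes (Hbegf, Areg, Ereg, Tgfa and Nrg1) and 3 receptor genes (Egfr, Erbb2 and Erbb3). They were taken by gene symbol from 6 tables of single-cell RNA counts, and each symbol matched a row in every table, so that 8 of the 20490 genes present in all 6 tables are described. The ligands are made as membrane-anchored precursors and are released when metalloproteases such as ADAM17 cut them from the cell surface. HBEGF, AREG, EREG and TGFα bind EGFR, HBEGF and EREG also bind ERBB4, and NRG1 binds ERBB3 and ERBB4. ERBB2 has no known ligand of its own and pairs with the other receptors, while ERBB3 has almost no kinase activity and signals through its partner. In the lung, these ligands and receptors are known for their part in repair of the alveolar epithelium after injury and in growth of FBs.

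The libraries came from 3 experiments, with a control and an injured or fibrogenic library in each. In the single-dose experiment, adult male Pdgfra-GFP reporter mice received 1 oropharyngeal dose of PBS or bleomycin in 50 μl, and GFP+ lung cells were sorted on day 14. The labels disagree on that bleomycin dose, with 2 U/kg under the protocols and 4 U/kg under treatment. In the repetitive experiment, PDGFRa-EGFP mice received PBS or bleomycin once a week for 3 weeks, with 1 U/kg in both earlier doses and 0.5 U/kg in the last, and GFP+ cells were sorted 14 days after the last dose. In the organoid experiment, Tomato+ type 2 alveolar epithelial cells (AEC2s) of SpcCreER × Rosa-td26 mice (Cre driver and tomato reporter) that had received 2 injections of tamoxifen at 1 mg/kg were cultured in Matrigel for 2 weeks with GFP+ FBs. Those FBs came from mice given PBS (normal organoids) or 2 U/kg bleomycin (fibrogenic organoids), on day 14. The lungs of 3 mice were pooled for each group, so each condition is 1 library with no replicate. The reporter is driven from the Pdgfra locus, so that in the lung experiments the sort chose cells with GFP from it. In the organoids, Cre under the surfactant protein C promoter marked the AEC2s before culture.

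The libraries held 1060 and 1015 barcodes (single-dose PBS and bleomycin), 6139 and 10737 (repetitive) and 5441 and 8894 (normal and fibrogenic organoids). They totalled 7201081 to 238618743 UMIs (transcript molecules counted by their molecular tags). Barcodes under 2000 UMIs made up 43.7% of the repetitive bleomycin library and 33.5% of the fibrogenic organoid library, against 5.31% and 15.9% of their controls. All 24 calls given below kept their direction and size class when such barcodes were left out. Pairs of libraries shared 0 to 30 barcode sequences. After filtering, FBs were 914 and 840 barcodes (single-dose), 5353 and 8251 (repetitive) and 1919 and 2930 (organoids), and they carried the FB markers Col1a1, Col1a2, Col3a1, Pdgfra, Mfap4 and Bgn. A further 910 barcodes of the normal and 3159 of the fibrogenic organoids were mixed or unassigned and entered no comparison, against 0 in each lung library. Levels are the UMIs of a gene summed over the cell group and scaled to CPM by all UMIs of that group, with the exact 95% Poisson interval in parentheses. With 1 library a condition there was no test between conditions, and the intervals cover counting error only. The summed level of those markers in FBs was itself higher after bleomycin, at 21440 against 9624 CPM after a single dose and 16357 against 6269 after repetitive doses. A ratio is log2 after adding 1 CPM to both levels, and a gene was called at a ratio of 2-fold or more with at least 20 UMIs over both groups. Levels and ratios were compared only within an experiment and only within a gene, and likeness of genes over all cell groups, given last, is the exception.

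Areg and Ereg are neighbours on mouse chromosome 5. In the GRCm38 build, Ereg spans chr5:91074617-91093649 and Areg spans chr5:91139599-91148432, 45.949 kb apart with 0 coding genes between them. The family members Epgn (epigen) and Btc (betacellulin) flank the pair, at 39.404 kb from Ereg and 208.828 kb from Areg. Of the other members, Tgfa lies at chr6:86195038-86275744, Nrg1 at chr8:31807452-32891609, Erbb3 at chr10:128567523-128589635, Egfr at chr11:16752203-16913907 and Erbb2 at chr11:98412484-98437716. RefSeq promoter windows (GRCm38.p6) were held for 4 of the 8 members, Areg, Tgfa, Egfr and Erbb2, and not for Hbegf, Ereg, Nrg1 and Erbb3. The 250 bases before the annotated start of Areg and Tgfa are printed because these ligands moved in opposite directions in FBs after repetitive bleomycin. Both are on the plus strand, Areg at chr5:91139349-91139598 and Tgfa at chr6:86194972-86195221. The Tgfa window lies mostly inside the span given for the gene, since the annotated start used for it is not the outermost. Capitals mark matches, on either strand, to TGACGTCA (the cyclic AMP response element, CRE) and GGGCGG (a GC box):
Areg: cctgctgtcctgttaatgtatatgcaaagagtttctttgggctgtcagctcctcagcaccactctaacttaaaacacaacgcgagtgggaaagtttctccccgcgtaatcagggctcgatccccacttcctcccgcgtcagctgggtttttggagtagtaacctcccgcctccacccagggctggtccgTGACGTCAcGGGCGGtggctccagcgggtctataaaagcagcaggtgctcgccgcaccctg
Tgfa: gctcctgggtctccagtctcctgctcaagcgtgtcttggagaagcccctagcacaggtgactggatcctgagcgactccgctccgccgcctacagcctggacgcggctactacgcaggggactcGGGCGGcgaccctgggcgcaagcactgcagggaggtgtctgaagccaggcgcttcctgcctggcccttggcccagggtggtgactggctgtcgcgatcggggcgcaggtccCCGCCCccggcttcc

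The Areg window held 1 CRE match, with its first base at -61 from the start, and 1 GC box at -52. The Tgfa window held 2 GC boxes and no CRE. Egfr held 1 GC box, at -9, and Erbb2 held no match to either. None of the 4 windows held TGANTCA, the AP-1 motif. Among 32851 promoter windows of the same length, 1.55% held the CRE letters, 32.7% the GC box and 6.75% the AP-1 letters. A match to letters is a description of the sequence, and nothing was measured about binding there.

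In FBs after a single dose of bleomycin, the ligands Hbegf, Ereg and Nrg1 and the receptor Egfr were higher than after PBS, and no member was called lower. These 4 calls were among 6 members with enough UMIs, where 9.45% of 12080 genes were called higher and 3.77% lower. Hbegf, whose product is heparin-binding EGF-like growth factor, was at 1.82 CPM (0.910 to 3.26) after PBS and 26.5 CPM (23.5 to 29.8) after bleomycin, a log2 ratio of 3.28. Ereg (epiregulin) was at 0.166 CPM, from 1 UMI, against 12.3 CPM (10.2 to 14.6), from 127 UMIs, a log2 ratio of 3.51. The counting interval of its UMI ratio ran from 3.71 to 11.53 on the log2 scale, without the added 1 CPM. Nrg1 (neuregulin 1) was at 0.663 CPM (0.181 to 1.70) against 3.39 CPM (2.36 to 4.71), a log2 ratio of 1.40 from 4 and 35 UMIs. That call was lost with 5 CPM added, at 0.57, and with at least 100 UMIs required of a gene. The intervals of the 2 libraries did not overlap for any of these 3 ligands, but they take UMIs as independent. After bleomycin, the 5 of 840 barcodes with most UMIs of a ligand held 50.7% of the Hbegf, 31.5% of the Ereg and 37.1% of the Nrg1.

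Egfr, the receptor of 4 of these ligands, was at 16.4 CPM (13.34 to 19.98) after PBS and 34.9 CPM (31.4 to 38.7) after a single dose of bleomycin, a log2 ratio of 1.05. That call was lost with 5 CPM added, at 0.90, and with ratios centred on the median gene, at 0.95. Tgfa, which encodes TGFα, went the other way, at 4.81 CPM (3.22 to 6.90) against 1.93 CPM (1.18 to 2.99), but its log2 ratio of -0.98 missed the 2-fold limit. Erbb2 was at 5.30 and 7.16 CPM, a log2 ratio of 0.37. Areg (amphiregulin) had 0 UMIs in the FBs after PBS (0 to 0.611 CPM, where 3 counts would be 0.497 CPM), and 10 UMIs after bleomycin, at 0.967 CPM. Erbb3 had 0 and 2 UMIs, too few for a ratio.

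After repetitive bleomycin, 4 ligands were called higher in FBs, Ereg, Areg, Hbegf and Nrg1, and Tgfa was called lower, with all 8 members measured. Over all 17046 genes tested, 5.47% were called higher and 1.63% lower. Ereg was at 0.824 CPM (0.608 to 1.09) after PBS and 26.01 CPM (24.71 to 27.37) after bleomycin, a log2 ratio of 3.89. Areg was at 0.309 CPM (0.183 to 0.488) against 5.78 CPM (5.17 to 6.43), a log2 ratio of 2.37. The 18 Areg UMIs of the PBS library lay in 3 barcodes, and the 331 of the bleomycin library in 53.

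Hbegf was at 1.60 CPM (1.29 to 1.96) and 11.0 CPM (10.2 to 11.9) in the same libraries, a log2 ratio of 2.21. Nrg1 was at 3.79 CPM (3.31 to 4.33) and 18.2 CPM (17.1 to 19.3), a log2 ratio of 2.00. Tgfa was at 9.43 CPM (8.65 to 10.2) after PBS and 1.36 CPM (1.08 to 1.70) after bleomycin, from 549 and 78 UMIs, a log2 ratio of -2.14. For each of these 5 ligands the intervals of the libraries were separate. After bleomycin, the 5 FB barcodes with most UMIs of a ligand held 57.7% of the Areg, 40.1% of the Hbegf and 37.8% of the Ereg. For Nrg1 and Tgfa the shares were 25.1% and 15.4%. The median log2 ratio over the 8 members was 1.27, against 0.10 over all genes tested, and after a single dose it was 1.01 over the 8 members, Areg and Erbb3 with under 20 UMIs included, against 0.09.

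The receptors moved less in FBs of the repetitive experiment. Egfr was at 174 CPM (170 to 177) after PBS and 156 CPM (153 to 159) after bleomycin, a log2 ratio of -0.15. Erbb2 was at 6.27 CPM (5.64 to 6.94) and 9.51 CPM (8.73 to 10.3), a log2 ratio of 0.53, with intervals that did not overlap. Erbb3, the NRG1 receptor, was near 0 in FBs, at 0.309 and 0.332 CPM from 18 and 19 UMIs. The difference in Egfr between the experiments was not tested. In a sum over FBs, more cells that make a transcript and more of it in each cell cannot be told apart.

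**Figure D1:**
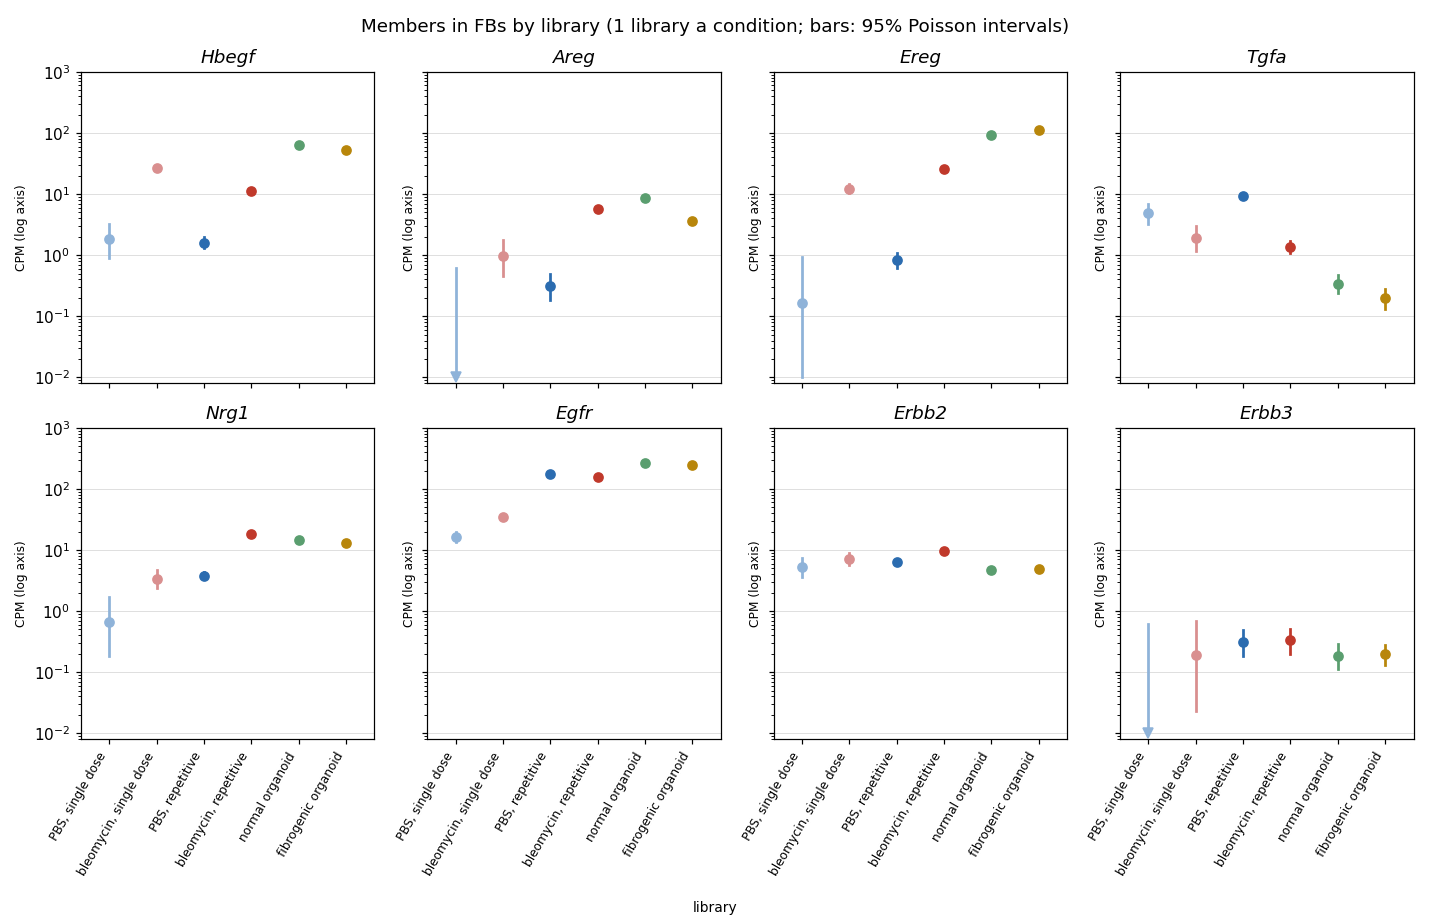
Level of each of the 8 members in FBs of the 6 libraries, in CPM on a log axis, with points for single libraries and bars for the exact 95% Poisson interval; a triangle at the foot marks 0 UMIs. Hbegf, Ereg and Nrg1 lie higher in the bleomycin library of both lung experiments and Tgfa lies lower, while organoid FBs differ most in Areg (8.51 against 3.63 CPM); levels are to be compared only within an experiment.

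MyoFB-like cells, the contractile and matrix-producing FBs, held Hbegf, Ereg and Nrg1 at higher levels than the remaining FBs in both bleomycin libraries. They came from clusters named by their markers (Spp1, Grem1 and Cthrc1 led the repetitive cluster), with the members and the pathway genes left out of the clustering. They numbered 50 barcodes after a single dose and 501 after repetitive doses. Neither PBS library had a barcode in such a cluster, so these cells were compared within the bleomycin library with the remaining FBs, those of no MyoFB-, MatrixFB-, cycling (PMP)-, mesothelial (MEFB)- or smooth-muscle-like cluster. In the repetitive library, 4 ligands were called higher in MyoFB-like cells and Tgfa lower among 7 members with enough UMIs, beside 4.21% of 15075 genes called higher and 5.36% lower. Hbegf was at 86.5 CPM (78.4 to 95.2) in MyoFB-like cells and 4.41 CPM in the 5407 remaining FBs, a log2 ratio of 4.02. Nrg1 was at 83.8 against 14.2 CPM, a log2 ratio of 2.48. Ereg was at 115 against 21.3 CPM, a log2 ratio of 2.38. Areg was at 19.7 against 5.31 CPM, a log2 ratio of 1.71.

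These ligand UMIs came from a small number of MyoFB-like barcodes. In the repetitive library, the 417 Hbegf UMIs lay in 85 of the 501 barcodes, the 404 Nrg1 UMIs in 53 and the 553 Ereg UMIs in 37. The 5 barcodes with most UMIs of a ligand held 57.6% of them for Hbegf, 58.7% for Nrg1 and 87.9% for Ereg. The 95 Areg UMIs lay in 6 barcodes, with 68.4% of them in a single one, and the Areg call was lost without that barcode, at a log2 ratio of 0.48. Ereg had 40.5% of its UMIs in 1 barcode and kept its call without it. The call without all 5 barcodes was not computed, so higher Ereg in MyoFB-like cells rests largely on those 5. In remaining FBs the 5 barcodes with most Ereg held 25.9% of it. Tgfa had 1 UMI in MyoFB-like cells, at 0.207 CPM (0.00525 to 1.16), against 1.51 CPM, a log2 ratio of -1.06. The Tgfa call was lost under 4 of 13 alternatives, among them the requirement of 100 UMIs, which leaves the ratio itself unchanged. Egfr was at 119 and 142 CPM, a log2 ratio of -0.25, and Erbb2 at 11.0 and 9.80 CPM.

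After a single dose, 3 ligands were called higher in MyoFB-like cells among 5 members with enough UMIs, where 4.69% of 11016 genes were called higher and 11.3% lower. Hbegf was at 127 CPM (106 to 150) in the 50 MyoFB-like barcodes and 10.2 CPM in 585 remaining FBs, a log2 ratio of 3.51. Ereg was at 38.2 against 11.5 CPM, a log2 ratio of 1.66, and Nrg1 at 14.9 against 1.66 CPM, a log2 ratio of 2.58 from 16 and 12 UMIs. The 5 MyoFB-like barcodes with most UMIs of a ligand held 63.2% of them for Hbegf, 56.1% for Ereg and 68.75% for Nrg1. With MyoFB-like cells taken by a score of each barcode instead of by cluster, only the Hbegf call was kept among the 3, at a log2 ratio of 1.96. Over all 13 alternatives the Hbegf ratio ran from 1.16, without the mitochondrial and erythrocyte filter, to 3.65. Areg had 9 UMIs against 1, Tgfa 0 against 14, and Erbb2 4 against 56, at a log2 ratio of -0.88. Egfr was at 27.0 and 33.8 CPM, a log2 ratio of -0.31.

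MyoFB-like cells were 6.07% of the FB barcodes of the repetitive bleomycin library and 8.41% of its FB UMIs. They held 66.1% of its FB Hbegf UMIs, 38.7% of its Nrg1, 37.1% of its Ereg and 28.7% of its Areg. Most of its Nrg1, Ereg and Areg UMIs thus lay outside the MyoFB-like cluster. After a single dose MyoFB-like cells held 49.6% of the Hbegf, 45.7% of the Nrg1 and 32.3% of the Ereg UMIs, beside 10.4% of all FB UMIs. They also held 9 of the 10 Areg UMIs of the FBs, in 2 barcodes. Hbegf was also carried by the 28 cycling (PMP-like) barcodes of the single-dose bleomycin library, at 107 CPM (81.9 to 138). Most of it was in a single PMP-like cluster of 19 barcodes, 16 from bleomycin and 3 from PBS. The other, of 12 barcodes from bleomycin, had Hbegf at 18.7 CPM (5.09 to 47.9).

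**Figure D2:**
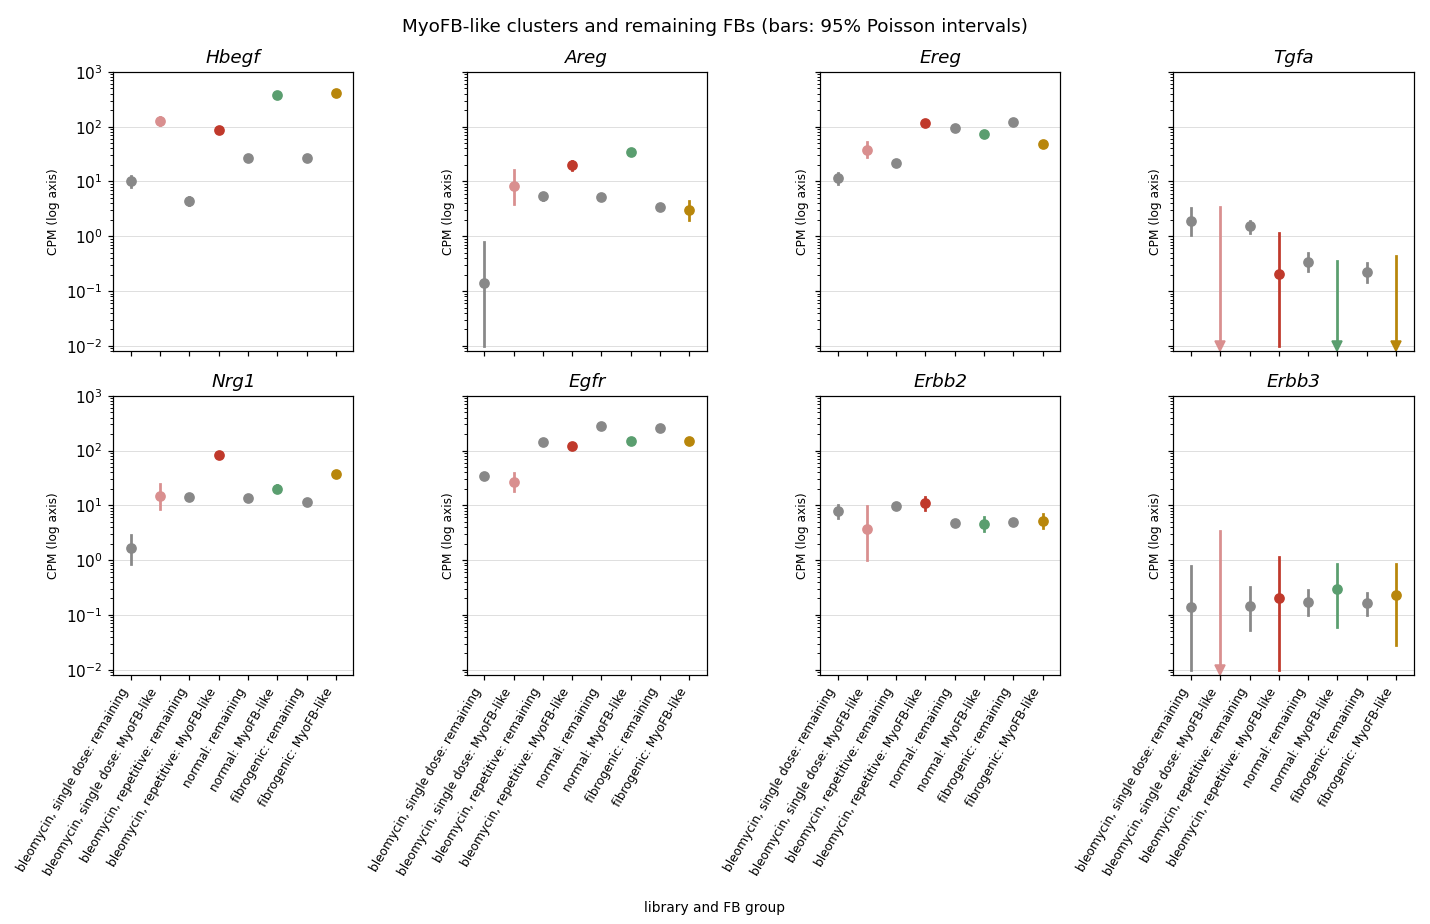
Level of each member in MyoFB-like cells and in remaining FBs of the same library, in CPM on a log axis with exact 95% Poisson intervals, for repetitive bleomycin, single-dose bleomycin and both organoid libraries. Hbegf is higher in the clusters named MyoFB-like in all 4 libraries (86.5 against 4.41 CPM after repetitive bleomycin), although the organoid one has no MyoFB marker among its 10 leading genes, while Ereg is higher in them in the lung and lower in the organoids.

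Outside the MyoFB-like cells, Areg and Ereg, Nrg1 and Tgfa were highest in different clusters of the repetitive experiment. Cluster levels join both libraries and are given as a description. Cluster G, with 1058 of its 1071 barcodes from bleomycin, was led by Hk2, Cxcl1, Il6, Adamts4 and Lif, genes that include inflammatory cytokines and chemokines. Areg in it was at 18.2 CPM (15.7 to 21.0) and Ereg at 63.4 CPM (58.7 to 68.4), from 26 and 96 barcodes, while Hbegf was at 9.78 and Nrg1 at 10.6 CPM. Cluster L, with 181 barcodes from PBS and 204 from bleomycin and led by Aqp1 and Adh7, had Nrg1 at 46.5 CPM (39.6 to 54.2) in 59 barcodes and Areg at 0. In cluster C, of 1446 barcodes led by Chl1 and Nnat, Ereg was at 7.41 CPM and Areg at 0.192 CPM. Nrg1 there was at 14.7 CPM.

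Tgfa was carried by FBs that were mostly from PBS. The LipoFB-like cluster, lipid-storing FBs that neighbour AEC2s, had Tgfa at 16.2 CPM, and cluster H, of 1060 barcodes, had it at 15.3 CPM. By library, Tgfa was at 16.4 CPM (14.1 to 18.9) in the 1265 LipoFB-like barcodes of the repetitive PBS library, which held 34.1% of its FB Tgfa UMIs and 19.6% of its FB UMIs. Only 28 barcodes of the bleomycin library were LipoFB-like, with 0 Tgfa UMIs among 159402 UMIs, too few to set beside the PBS level. Cluster K, with 383 of its 389 barcodes from bleomycin, had Tgfa at 5.98 CPM, from 23 UMIs. It was not named LipoFB-like, although the LipoFB marker Ces1d was among its 10 leading genes. In the single-dose experiment, 243 and 7 barcodes were LipoFB-like, and Tgfa was at 11.5 CPM (6.45 to 19.0) in those of the PBS library. In the FBs outside LipoFB-like cells, Tgfa was at 7.73 CPM (6.95 to 8.57) after PBS and 1.36 CPM (1.08 to 1.70) after repetitive bleomycin. After a single dose it was at 2.96 CPM (1.62 to 4.96) and 1.94 CPM (1.18 to 2.99) in such FBs, with overlapping intervals. In MatrixFB-like cells, which were in both libraries of the repetitive experiment, Tgfa was at 2.24 CPM (1.07 to 4.12) after PBS and 1.37 CPM (0.768 to 2.26) after bleomycin, with overlapping intervals.

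In the repetitive experiment, the highest Egfr of the clusters was in cluster M, at 454 CPM. The lowest was in cluster Q, at 33.5 CPM from 4 UMIs, too few to rank it below cluster S, at 67.7 CPM from 4 UMIs. Cluster M was named MatrixFB-like and was led by Wt1, a marker of MEFBs, and by Dpp4, a marker of MatrixFBs. The other MatrixFB-like clusters, E, F and N, had Egfr at 194, 157 and 211 CPM. Clusters B and L, not so named, had it at 222 and 201 CPM. By library, Egfr was at 263 CPM after PBS and 229 CPM after bleomycin in MatrixFB-like cells, against 105 CPM in LipoFB-like cells after PBS. FBs outside MatrixFB-like cells had it at 166 CPM (163 to 170) after PBS and 139 CPM (136 to 143) after bleomycin. The single-dose libraries had the same order, with Egfr at 47.5 CPM (29.0 to 73.3) after PBS and 57.0 CPM (44.6 to 71.8) after bleomycin in MatrixFB-like cells and 11.5 CPM (6.45 to 19.0) in LipoFB-like cells after PBS. The MatrixFB-like levels of the 2 single-dose libraries did not differ beyond counting error. MatrixFB-like barcodes numbered 68 and 163 there. In the FBs outside them Egfr was at 14.1 CPM (11.1 to 17.5) after PBS and 31.8 CPM (28.3 to 35.7) after bleomycin.

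**Figure D3:**
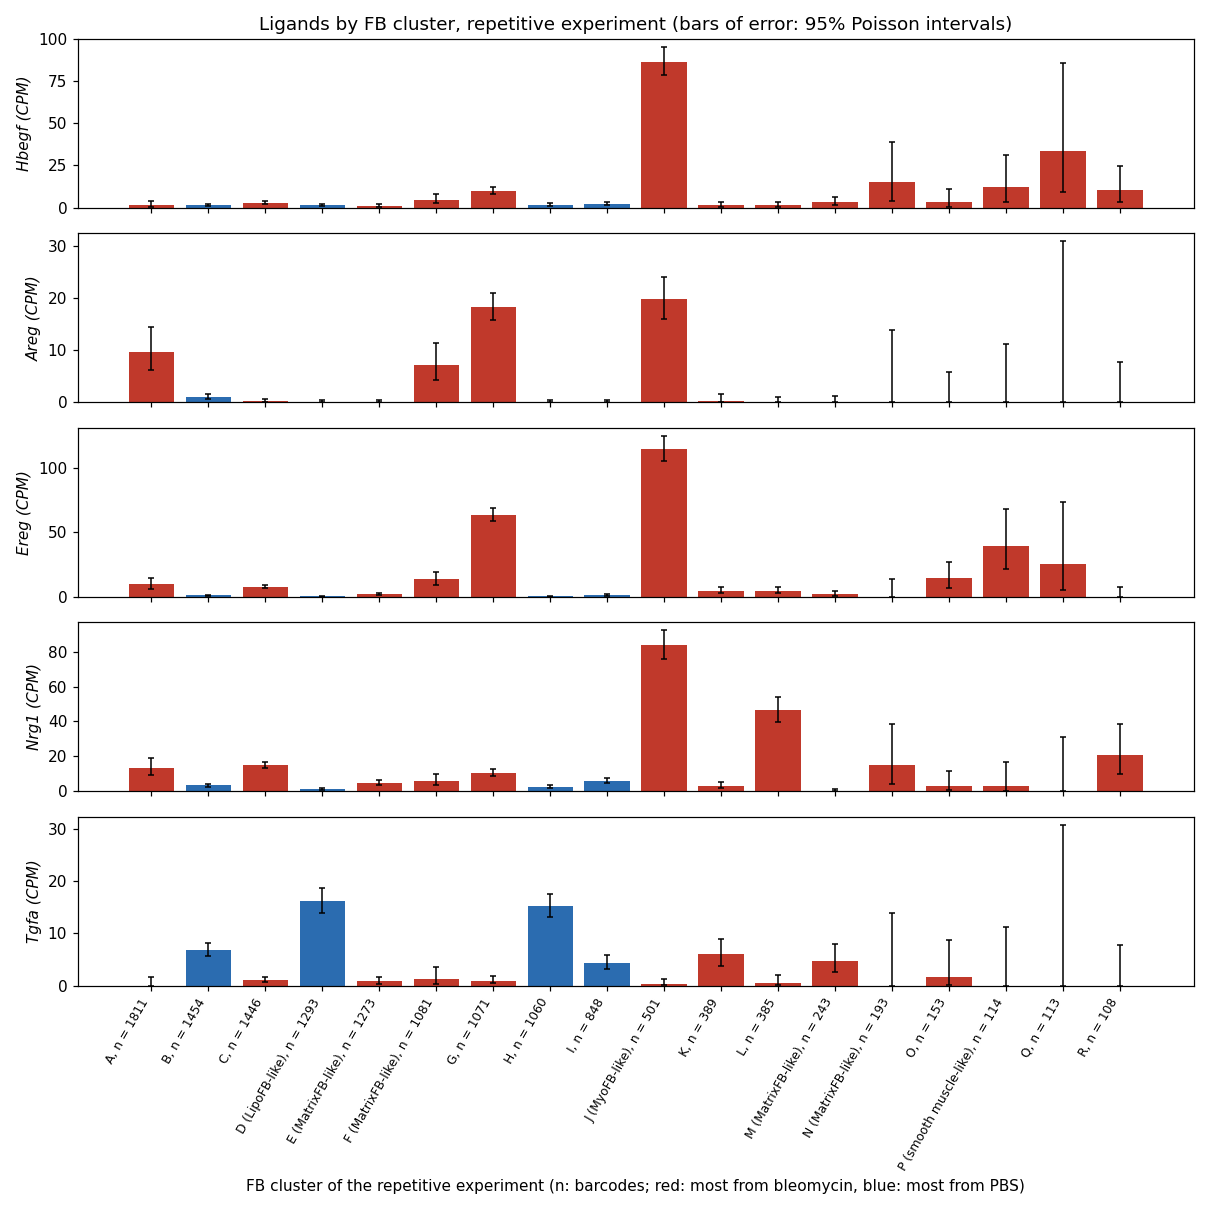
Level of the ligands Hbegf, Areg, Ereg, Nrg1 and Tgfa in the larger FB clusters of the repetitive experiment, in CPM on a linear axis. Both libraries are joined, the members were left out of the clustering, and error bars give the exact 95% Poisson interval. The MyoFB-like cluster holds the highest Hbegf, cluster G holds Areg at 18.2 and Ereg at 63.4 CPM, cluster L holds Nrg1 at 46.5 CPM, and the LipoFB-like cluster holds Tgfa at 16.2 CPM.

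Areg and Ereg were often counted in the same FB barcodes after repetitive bleomycin. Of 53 FB barcodes with an Areg UMI, 27 (50.9%) also had an Ereg UMI, against 3.58% of all 8251 FB barcodes, and these were 9.15% of the 295 barcodes with Ereg. The Areg barcodes had a median of 2279 UMIs, against 2768 in all FBs. Among FBs of at least 10000 UMIs, 12 of 18 Areg barcodes had Ereg, against 7.53%. Hbegf barcodes were deeper, with a median of 14392 UMIs, and 41 of 216 (19.0%) had Ereg. From 10000 UMIs up, 34 of 131 Hbegf barcodes had Ereg, against 7.53% of all FBs, and 23.7% had Nrg1, against 7.88%. Hbegf and Areg shared 4 barcodes. At that depth these were 22.2% of the Areg barcodes, against 5.61% of all FBs with Hbegf. Nrg1 was in 8 of the 18 Areg barcodes (44.4%), against 7.88%, so sharing was not particular to Areg and Ereg. In the single-dose bleomycin library, 20 of 83 Hbegf barcodes (24.1%) had Ereg, against 7.14% of its FBs, and 13 (15.7%) had Nrg1, against 3.10%.

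In organoid FBs, normal and fibrogenic cultures differed little. No member was called higher and Areg was called lower in fibrogenic organoids, beside 0.247% of 17780 genes called higher and 0.664% lower. Areg was at 8.51 CPM in FBs of normal organoids and 3.63 CPM in those of fibrogenic organoids, a log2 ratio of -1.04. Of the 921 Areg UMIs in normal organoids, 33.1% lay in 1 barcode, and the call was lost without it. Hbegf was at 64.5 and 51.9 CPM, Ereg at 93.4 and 113 CPM, Nrg1 at 14.4 and 13.1 CPM, Egfr at 262 and 247 CPM and Erbb2 at 4.71 and 4.96 CPM, with log2 ratios between -0.31 and 0.27. Tgfa, at 0.342 and 0.195 CPM, and Erbb3, at 0.185 and 0.195 CPM, were near 0 in both. The FBs had been in culture for 2 weeks after the sort.

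Among the organoid FBs, Hbegf was higher in the cluster named MyoFB-like than in remaining FBs. That cluster was led by Cdh6, Stra6, Timp3 and Crabp2, with no MyoFB marker among its 10 leading genes. Hbegf, which had not entered the clustering, was among those 10. A larger cluster of 951 barcodes, led by the contractile genes Actg2, Cnn1, Acta2, Myl9 and Tagln, was left unnamed and stayed in the remaining FBs, with Hbegf at 25.1 CPM. Hbegf was at 382 CPM in 142 MyoFB-like barcodes of normal organoids and 413 CPM in 99 of fibrogenic organoids, against 26.5 and 26.7 CPM in remaining FBs. These barcodes held 55.9% and 46.2% of the FB Hbegf UMIs, beside 9.45% and 5.80% of all FB UMIs. Ereg had the other order, at 74.8 and 47.9 CPM in MyoFB-like cells against 95.8 and 123 CPM, and its highest cluster level, 234 CPM, was in a cluster named LipoFB-like, which was led by Mcpt8, Gzme and Mmp8 with Limch1 the single LipoFB marker among its 10 leading genes. Nrg1 was at 20.1 and 37.2 CPM in MyoFB-like cells against 13.7 and 11.3 CPM, but 55.8% and 61.7% of those UMIs lay in 1 barcode of each library, and without it the levels were 8.89 and 14.3 CPM. Nrg1 was at 41.5 CPM in a cluster led by Aqp1, Il1rl1 and Adh7. Egfr was lower in MyoFB-like cells, at 150 and 149 CPM against 286 and 262 CPM.

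In the organoid epithelium, no member passed 2-fold between normal and fibrogenic cultures, where 0.206% of 16472 genes were called higher and 0.115% lower. The 8 log2 ratios lay between -0.27 (Areg) and 0.56 (Egfr). Hbegf was at 187 CPM in 1847 epithelial barcodes of normal organoids and 243 CPM in 1871 of fibrogenic organoids. Areg was at 172 and 142 CPM and Nrg1 at 48.3 and 61.9 CPM. Tgfa was at 8.87 and 8.60 CPM and Ereg at 5.71 and 5.96 CPM. Erbb2 was at 13.3 and 13.1 CPM and Erbb3 at 26.2 and 27.0 CPM.

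The differences in the epithelium were between cell states. PATS-like cells, the transitional state between AEC2s and type 1 cells (AEC1s), were led by Ankrd1, Fermt1 and the PATS marker Cldn4 and numbered 194 and 257 barcodes. Against AEC2-like cells (926 and 481 barcodes), Egfr, Nrg1 and Ereg were called higher in PATS-like cells in both libraries and no member was called lower, among 8 measured. In normal organoids 16.8% of 14446 genes were called higher and 9.58% lower, and in fibrogenic organoids 15.2% of 13995 were called higher and 10.8% lower. Egfr was at 1.30 CPM in AEC2-like and 23.0 CPM (19.98 to 26.43) in PATS-like cells of normal organoids, a log2 ratio of 3.38. In fibrogenic organoids it was at 2.31 and 22.8 CPM (20.2 to 25.7), a log2 ratio of 2.85.

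FB RNA was present in these epithelial groups and bears on the low Egfr and Ereg levels. FB markers in AEC2-like cells summed to 66.9 and 125 CPM and in PATS-like cells to 126 and 151 CPM, of 11802 and 11721 CPM in FBs. At those shares, FB RNA alone would give Egfr 1.49 and 2.62 CPM in AEC2-like cells, above the levels measured there, and 2.80 and 3.19 CPM in PATS-like cells, below the 23.0 and 22.8 CPM measured. The ratio of Egfr to AEC2-like cells has a level at or under that share in its denominator, and the part of FB RNA in it was not tested. For Ereg the same share would give 0.529 and 1.20 CPM in AEC2-like and 0.999 and 1.46 CPM in PATS-like cells.

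Nrg1 was at 24.6 CPM in AEC2-like and 176 CPM in PATS-like cells of normal organoids, a log2 ratio of 2.79, and at 33.8 and 159 CPM in fibrogenic organoids, a log2 ratio of 2.20. Ereg was at 5.52 and 12.4 CPM in normal organoids, a log2 ratio of 1.04, and at 4.22 and 15.0 CPM in fibrogenic organoids, a log2 ratio of 1.61. The first of these Ereg calls was lost under 4 of 13 alternatives. Hbegf was also higher in PATS-like cells, at 264 against 147 CPM and 335 against 179 CPM, but its log2 ratios of 0.84 and 0.90 missed 2-fold.

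The other members differed less between PATS-like and AEC2-like cells. Areg, at 202 against 178 CPM and 167 against 160 CPM, had log2 ratios of 0.18 and 0.06. Tgfa was at 11.5 against 8.64 CPM and at 13.8 against 6.75 CPM, with log2 ratios of 0.37 and 0.93. Erbb3 was at 34.3 against 22.8 CPM and at 31.2 against 24.5 CPM, and Erbb2 at 14.3 against 12.5 CPM and at 13.3 against 12.4 CPM. Between normal and fibrogenic organoids, PATS-like cells had Egfr levels that did not differ beyond counting error.

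AEC1-like cells, which line the gas-exchange surface (233 and 208 barcodes), had the highest Hbegf and the lowest Areg of the epithelial states. Hbegf was at 368 and 429 CPM in them, while Areg was at 37.6 and 24.5 CPM, against 178 and 160 CPM in AEC2-like and 181 and 159 CPM in cycling epithelial cells. Egfr was at 12.9 and 14.6 CPM and Nrg1 at 72.7 and 68.6 CPM, both between AEC2-like and PATS-like cells. Cycling epithelial cells (209 and 141 barcodes) had Egfr at 1.19 and 1.13 CPM, as low as AEC2-like cells. Erbb2, at 20.9 and 17.5 CPM, and Erbb3, at 39.2 and 37.1 CPM, were highest in AEC1-like cells in both libraries.

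**Figure D4:**
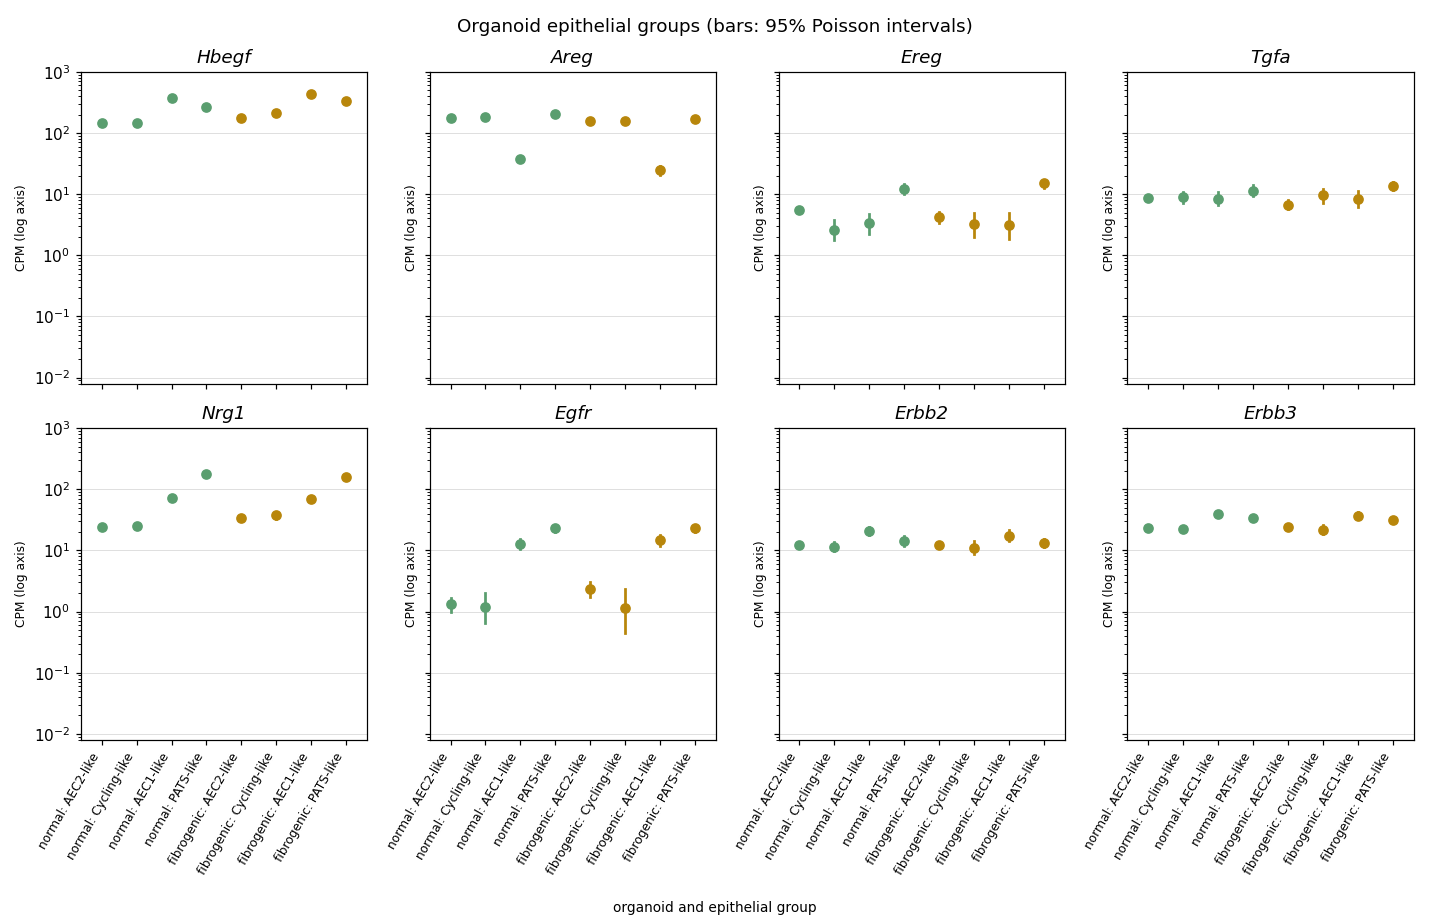
Level of each member in AEC2-like, cycling, AEC1-like and PATS-like epithelial cells of normal and fibrogenic organoids, in CPM on a log axis with exact 95% Poisson intervals. Egfr, Nrg1 and Ereg are highest in PATS-like cells, Hbegf is highest in AEC1-like cells (368 and 429 CPM) and Areg is lowest there, in both cultures.

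Cells of other kinds were also in the sorted libraries, among them 779 macrophage- and monocyte-like barcodes after repetitive bleomycin, and some carried members. In the repetitive bleomycin library, 71 Areg UMIs lay in 15 of 127 T-like barcodes, at 86.2 CPM (67.3 to 109), against 0 UMIs in the 128 T-like barcodes of the PBS library. Endothelial-like cells of the repetitive PBS library had Hbegf at 34.5 CPM, from 70 UMIs in 32 of 145 barcodes, and those of the bleomycin library had it at 11.3 CPM. B-like cells of the bleomycin library showed Hbegf at 77.4 CPM, but 88.0% of it lay in 1 barcode. FB RNA was also present in the T-, B-, macrophage- and endothelial-like groups of the repetitive experiment, and its part in their Egfr was not tested. FB markers there were at 32.1 to 60.1% of their FB level, and Egfr was, for example, at 78.4 CPM in endothelial-like cells after PBS, where that share would give 74.1 CPM. In T-like cells after bleomycin Egfr was at 83.7 CPM (65.2 to 106), where the share would give 55.4 CPM, but 37.7% of the UMIs lay in 1 barcode and the level without it was 52.2 CPM. In those after PBS it was at 48.7 CPM, below the 61.4 CPM. Erbb3 was an epithelial transcript in the lung libraries as well, at 22.5 and 57.2 CPM in 41 and 58 epithelial barcodes of the repetitive experiment.

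Of the other genes of the pathway, 50 were taken in 5 lists chosen with earlier results of these data known. Their counts are to be read beside the shares of all genes called. In FBs these shares were 9.45% higher and 3.77% lower after a single dose, and 5.47% and 1.63% after repetitive doses. Of 10 response genes, 5 were higher and 2 lower in FBs after a single dose, and 3 higher and 2 lower after repetitive doses. Etv4, an ETS transcription factor induced by growth factor signalling, had a log2 ratio of 2.99 after a single dose, from 0 UMIs after PBS and 72 after bleomycin, and of 1.38 after repetitive doses. Ccnd1 (cyclin D1) had log2 ratios of 3.10 and 2.37 and Plaur (the urokinase receptor) 2.95 and 1.73. Fosl1 was higher after a single dose, at 2.03, and lower after repetitive doses, at -1.92, and Fos was lower after a single dose, at -1.98.

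Of 14 inhibitors and feedback genes, Dusp5, a dual-specificity phosphatase, was the single call in FBs after a single dose, at 19.6 against 2.15 CPM (log2 ratio 2.71). After repetitive doses 2 were higher, with Lrig1 at 1.10, and 1 was lower, Errfi1, an EGFR inhibitor, at -1.48. None of the 5 shedding genes (Adam17 and Adam10 among them) passed 2-fold in FBs of either lung experiment. Of the 7 other family members, none passed 2-fold after repetitive doses. Btc came closest, at a log2 ratio of 0.97, where the added 1 CPM shrinks the ratio of a gene with few UMIs. Nrg2, a second neuregulin, was at 134 CPM after PBS and 72.9 CPM after repetitive bleomycin, a log2 ratio of -0.87, and had a log2 ratio of -1.41 after a single dose. No gene of the lists described here passed 2-fold between normal and fibrogenic organoids, in FBs or in epithelium.

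In MyoFB-like cells, Dusp5 and Etv4 were higher, as Hbegf was, in both experiments. Dusp5 was at 40.9 against 3.51 CPM in remaining FBs after repetitive doses and at 98.8 against 6.76 CPM after a single dose, with log2 ratios of 3.22 and 3.68. Etv4 had log2 ratios of 3.00 and 3.56 and Errfi1 ratios of 1.63 and 1.76. Nrg2 was lower, at 14.3 against 92.2 CPM after repetitive doses, with log2 ratios of -2.61 and -2.88. Of the response genes, 3 of 10 were higher after repetitive doses and 5 after a single dose, and 0 were lower in either. Over all genes, 4.21% and 4.69% were called higher and 5.36% and 11.3% lower in the same comparisons. Adam17 was called lower after a single dose, at 23.3 against 49.8 CPM, a log2 ratio of -1.06, and had a log2 ratio of -0.55 after repetitive doses.

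In PATS-like against AEC2-like cells, response and inhibitor genes moved in both directions. Over all genes, 16.8% were called higher and 9.58% lower in normal organoids, and 15.2% and 10.8% in fibrogenic organoids. Myc, a transcription factor that drives growth, was at 26.3 against 1.79 CPM in normal organoids, a log2 ratio of 3.29, and had a log2 ratio of 3.28 in fibrogenic organoids. Ier3, Plaur and Fosl1 were also higher in both, while Etv5, an ETS factor of AEC2s, was lower, with log2 ratios of -3.24 and -3.67. Of the inhibitors, 4 were higher and 5 lower in normal organoids and 3 and 5 in fibrogenic organoids, with Lrig1 higher at 2.05 and 2.07 and Errfi1 lower at -1.35 and -1.29. Spry1 was lowest in normal organoids, at -2.10, and Spred2 in fibrogenic organoids, at -2.07, both feedback inhibitors. Lrig3 was at 2.02 in normal organoids. Of the 5 shedding genes, 3 and 2 were higher and 0 lower. The sheddase Adam10 was at 1.57 and 1.37 and Timp3, an inhibitor of such proteases, at 1.57 and 2.06, while Adam17 was the lowest in both, at -0.11 and -0.19.

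Across 37 cell groups of at least 50 barcodes, the genes most like each member were named by Pearson's r of log2(CPM + 1) over 14280 genes. The groups share libraries and depth, so r is a description with no test. Hbegf was most like Serinc2 (0.929), Ttc9 and Eif4e2, and Nrg1 was also most like Serinc2 (0.838), followed by Vmp1 and by Hbegf itself (both 0.837). Ereg was most like Grem1 (0.888), Rgs16 and Inhba, 2 of them leading genes of the MyoFB-like cluster. Areg was most like Rragd (0.914), Rims2 and Macc1, and Tgfa most like Eci1, Osgin1 and Rfk (0.811 to 0.810). Among the receptors, Egfr was most like Kirrel (0.931), Fam114a1 and Sec23a, Erbb2 most like Erlin2 (0.836), Shroom4 and Susd4, and Erbb3 most like Myo5b (0.980), Rab25 and Arhgef16.

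**Figure D5:**
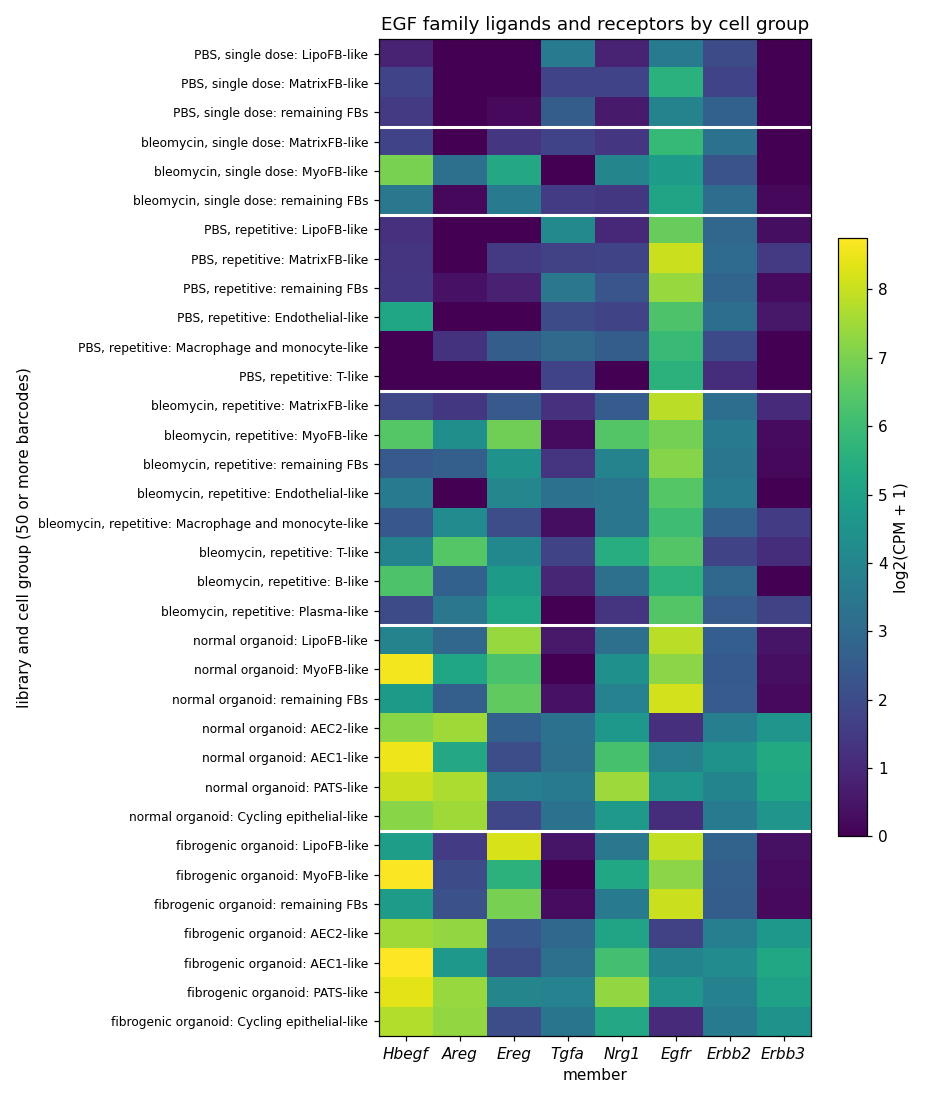
Level of the 8 members (columns) in cell groups of each library (rows), coloured by log2 of CPM after adding 1. Egfr is bright in FB groups, Areg and Erbb3 in organoid epithelial groups, and Hbegf in MyoFB-like and in all organoid epithelial groups; levels are to be compared within a gene and an experiment only.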

How the data were processed

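Single-cell RNA was measured on the 10x Genomics platform in 6 libraries, each of 3 pooled mice. Per the labels, the authors made the deposited tables of raw UMI counts per gene and barcode with Cell Ranger 3.0.1 on mm10. The study's methods name GRCm38 with Gencode M17. The single-dose tables list 30830 and 30828 genes and the others 32285, so that 1 annotation may not hold for all. Each experiment was clustered with the members and pathway genes left out (scanpy 1.11.5, 2000 variable genes, 30 components, 20 neighbours, Leiden resolution 1), and clusters were named from fixed marker lists. Barcodes over 3 median absolute deviations above their cluster's median share of mitochondrial or erythrocyte counts were removed, as were clusters whose mean share was over 25% or 0.5%. The rules for mixed clusters and for AEC2-, MyoFB- and PMP-like names were set after the clusters were seen. Counts were summed per library and cell group. The code for ratios, calls and intervals was tested on simulated counts, while clustering, naming and filtering were not. Within an experiment, CPM used the genes in both tables. No test was run, since each condition is 1 library. Scrublet called 0 to 11 barcodes a library, so that it did not work on the large libraries, and an alternative removed the top 5% of its scores. The members and the pathway lists were chosen with earlier results of these data known. By rule, the text names the 8 members and, of each pathway list, the highest and lowest log2 ratio and genes past 4-fold. Where extremes of a list were under 2-fold, it gives counts for most, and some genes were named after their values were seen. The 3 most like genes by Pearson's r are named for each member. Depth ran from 2478 to 36841 median UMIs a barcode. One of the 5 pathway lists and some leading genes of clusters are not reported here. Alternatives are listed in the closing section.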

Additional observations from a re-analysis of the deposited data

How the results depend on the processing

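The 24 calls of members were recomputed under 13 alternatives, of which 2 (leaving out the top barcode of each gene and group, and removing the top 5% of Scrublet scores) were chosen after seeing the data. All 24 kept their direction in all 13, and 16 kept their call in all 13. Those 16 include Hbegf in all 4 of the FB and MyoFB-like comparisons of the lung. Under some alternatives the direction could not change, so its being kept there shows nothing. Another added constant keeps the sign of a ratio, and a higher UMI requirement leaves the ratio unchanged. Removal of Scrublet doublets tested little in the repetitive and organoid libraries, where 0 or 1 barcodes were called in each. No call was lost at resolution 2, with at least 2000 UMIs required of a barcode or without the top 5% of Scrublet scores. No paired analysis was possible because each condition is 1 library.

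In single-dose FBs, members called higher fell from 4 to 2 (Hbegf and Ereg) with 5 CPM added and lost Egfr with centred ratios and Nrg1 with 100 UMIs required, while members called lower rose from 0 to 1 (Tgfa) with 0.1 CPM added, with ratios centred on the median gene, with Scrublet doublets removed, at resolution 0.5 and with a gate on each barcode. In organoid FBs, the 1 member called lower (Areg) became 0 with 5 CPM, the gate, or without the top barcode. In single-dose MyoFB-like cells, those called lower rose from 0 to 1 (Erbb2) with 0.1 CPM, at resolution 0.5, without the mitochondrial and erythrocyte filter and without the top barcode, and those called higher fell from 3 to 1 (Hbegf) with the gate. In repetitive MyoFB-like cells, the 1 called lower (Tgfa) became 0 with 5 CPM, with 100 UMIs required, at resolution 0.5 and with members kept in the clustering. The cause was not tested, other than that an added constant shrinks the ratios of low genes.

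The calls that were lost had these ranges of log2 ratios over the alternatives: Nrg1 0.57 to 2.19 and Egfr 0.90 to 1.13 in single-dose FBs, Areg -1.21 to -0.42 in organoid FBs, Ereg 0.24 to 1.73 and Nrg1 0.89 to 3.10 in single-dose MyoFB-like cells, Areg 0.48 to 3.04 and Tgfa -2.39 to -0.32 in repetitive MyoFB-like cells, and Ereg 0.72 to 1.78 in PATS-like cells of normal organoids. Low UMI numbers limit Areg and Erbb3 in single-dose FBs.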

Other observations

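Epithelial cluster L of the organoids, of 103 barcodes led by Batf3, Ndrg1 and Egln3, had the highest Areg of the epithelial clusters, at 552 CPM, with Hbegf at 273 CPM. The next was an AEC2-like cluster with Areg at 254 CPM, and in cluster F, of 344 barcodes led by Ntn1 and Crym, Areg was at 80.6 CPM.

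The chromosome 5 neighbours of Areg and Ereg had few UMIs. In MyoFB-like cells after repetitive bleomycin, Btc was at 5.81 CPM against 0.292 CPM in remaining FBs, from 28 and 12 UMIs. Epgn had 17 and 4 UMIs in the same groups, and all 17 lay in 1 barcode. Over all FBs of that experiment, Btc had 8 UMIs after PBS and 70 after bleomycin, and Epgn 2 and 22.

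Among FBs of the single-dose experiment, cluster K, of 25 barcodes led by Gdf15, Cdkn1a and Hmox1, had Hbegf at 99.3 CPM and Ereg at 55.9 CPM, but 90.6% of those Hbegf UMIs lay in 1 barcode, and the 18 Ereg UMIs lay in 3 barcodes.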
